A study of Mus musculus with 2 samples.

Results

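Imprinted genes are transcribed mainly from the copy inherited from 1 parent. A list of 39 of them was followed through total RNA-seq of mouse hippocampus. The 39 were chosen by symbol and all were found among the 55536 annotated genes of the gene tables. By textbook classes 23 are expressed from the paternal copy and 14 from the maternal copy, and for Grb10 and Ddc the expressed copy depends on the tissue. They lie in 17 clusters or single loci, and 32 are coding and 7 noncoding.

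The data came from 1 group, male adult 5xFAD/CAST mice aged 8 to 10 months, with 2 libraries called biological replicates 1 and 2 in the labels. 5xFAD mice carry human transgenes bearing familial Alzheimer mutations under the neuronal Thy1 promoter, and CAST is a wild-derived inbred strain. Mice without the transgenes were not analysed here, so there was no comparison of conditions. Both libraries carry the same donor identifier, so SDs here reflect the spread of these 2 samples alone, part of which may be technical, and the p-values hold for counting error only. The labels name a cross of 5xFAD and Cast but not which strain was the mother, and the tables give no reads per allele. Which copy was transcribed was therefore not measured, and "maternal" and "paternal" below are classes known from other work in mouse. The libraries held 26128897 and 28689423 expected counts. All 6 hippocampal markers passed 1 TPM, a count scaled for length and depth, in both, and markers of hypothalamus, choroid plexus and striatum were higher in replicate 1, with values given beside the genes that differed.

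Imprinting rests on DNA methylation that is laid down in the egg or the sperm and kept through the divisions of the body's cells. A methylated control region of a cluster silences 1 set of genes on 1 parental copy, often together with a long noncoding RNA or the insulator protein CTCF. In the brain, imprinted genes are known for roles in growth, feeding, maternal care and neuronal signalling. Loss of the paternal or of the maternal function of the Snrpn region in people gives Prader-Willi or Angelman syndrome.

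The promoters shown here belong to the highest noncoding member and to 4 paternally expressed genes that start inside a methylated control region. These genes were picked by hand and are not all the listed genes with such starts. Capitals mark the letters TGCCGC on either strand (GCGGCA on the other), the core that the protein ZFP57 binds in its methylated form at imprinted control regions. Each window runs from 250 bases before to 50 bases after a RefSeq start (build GRCm38.p6) and is written 5′ to 3′ on the strand of the gene. They are Meg3 at chr12:109540746-109541045 on the plus strand, Nnat at chr2:157559828-157560127 (plus), Nap1l5 at chr6:58907077-58907376 (minus), Mest at chr6:30737800-30738099 (plus) and Peg3 at chr7:6730370-6730669 (minus).
Meg3: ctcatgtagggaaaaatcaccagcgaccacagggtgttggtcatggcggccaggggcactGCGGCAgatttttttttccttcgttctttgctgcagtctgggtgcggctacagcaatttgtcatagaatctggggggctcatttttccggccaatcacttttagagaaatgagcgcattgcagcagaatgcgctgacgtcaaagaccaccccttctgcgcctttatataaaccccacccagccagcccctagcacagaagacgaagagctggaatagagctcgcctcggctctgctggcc
Nnat: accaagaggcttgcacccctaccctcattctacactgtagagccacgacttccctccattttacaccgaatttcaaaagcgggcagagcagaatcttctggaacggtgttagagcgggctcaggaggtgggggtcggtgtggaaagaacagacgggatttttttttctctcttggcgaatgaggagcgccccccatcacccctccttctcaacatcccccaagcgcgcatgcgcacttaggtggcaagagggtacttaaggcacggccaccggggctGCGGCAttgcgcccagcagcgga
Nap1l5: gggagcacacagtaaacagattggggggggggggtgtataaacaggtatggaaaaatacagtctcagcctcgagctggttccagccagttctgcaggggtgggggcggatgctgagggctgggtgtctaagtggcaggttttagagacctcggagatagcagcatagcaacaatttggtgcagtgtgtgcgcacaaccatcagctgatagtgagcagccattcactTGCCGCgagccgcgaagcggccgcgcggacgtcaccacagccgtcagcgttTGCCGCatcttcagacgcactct
Mest: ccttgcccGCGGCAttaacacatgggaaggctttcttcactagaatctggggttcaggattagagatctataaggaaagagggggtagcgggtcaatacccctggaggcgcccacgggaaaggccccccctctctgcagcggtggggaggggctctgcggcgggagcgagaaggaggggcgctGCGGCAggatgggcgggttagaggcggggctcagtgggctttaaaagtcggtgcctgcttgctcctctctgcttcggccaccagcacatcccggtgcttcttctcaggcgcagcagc
Peg3: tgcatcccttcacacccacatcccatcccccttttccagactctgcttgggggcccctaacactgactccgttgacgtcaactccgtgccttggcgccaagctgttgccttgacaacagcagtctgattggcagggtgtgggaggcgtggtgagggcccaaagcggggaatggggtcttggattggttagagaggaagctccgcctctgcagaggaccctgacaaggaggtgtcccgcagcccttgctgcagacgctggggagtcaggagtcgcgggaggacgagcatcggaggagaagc

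The windows of Mest and Nap1l5 held these letters at 2 places each and those of Meg3 and Nnat at 1. Meg3 and Mest had several windows, and one with the most copies of the letters was printed. The Meg3 window from 109545148 and the Mest window from 30733256 held 0 copies. The Peg3 window held none, and it overlapped the Usp29 window on the opposite strand by 263 bases, since these genes start head to head. RefSeq windows were matched for 32 of the 39 genes, and the others are H19, Impact, Peg10, Peg13, Rtl1, Sgce and Trappc9. Of 47 windows of imprinted genes, 14 (29.8%) held the letters, from 13 genes, against 11.6% of all 32851 windows of this length. Among the 14 are 2 Mest windows, from 30737800 and 30737803, that overlap almost wholly, and both also count among the paternal windows below. By gene the numbers were 13 of 32 imprinted genes and 3527 of 27025 genes with any window. The share was 29.6% over 27 windows of paternally expressed genes (7 of 18 genes) and 31.2% over 16 windows of maternally expressed genes (5 of 12 genes). The median number of CpG pairs was 13 in the windows of imprinted genes and 7 over all windows. A match of letters is a description and no measure of binding or methylation.

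Most of the listed imprinted genes were transcribed in this tissue. Of the 39, 32 (82.1%) reached 1 TPM or more in both libraries, against 28.3% of all annotated genes and 60.4% of protein-coding genes. By class these were 20 of 23 paternally expressed genes, 10 of 14 maternally expressed genes, and both Grb10 and Ddc. The 39 had a median level of 19.6 TPM (replicate 1) and 16.6 TPM (replicate 2), where protein-coding genes had 4.38 and 4.21 TPM. Among all genes that passed TPM of 1 in both libraries the median was 12.7 and 13.1 TPM. Together the 39 held 0.666 ± 0.0394% of all expected counts (SD, n = 2), and Meg3 alone held 49.2 ± 0.0888% of that share.

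**Figure D1:**
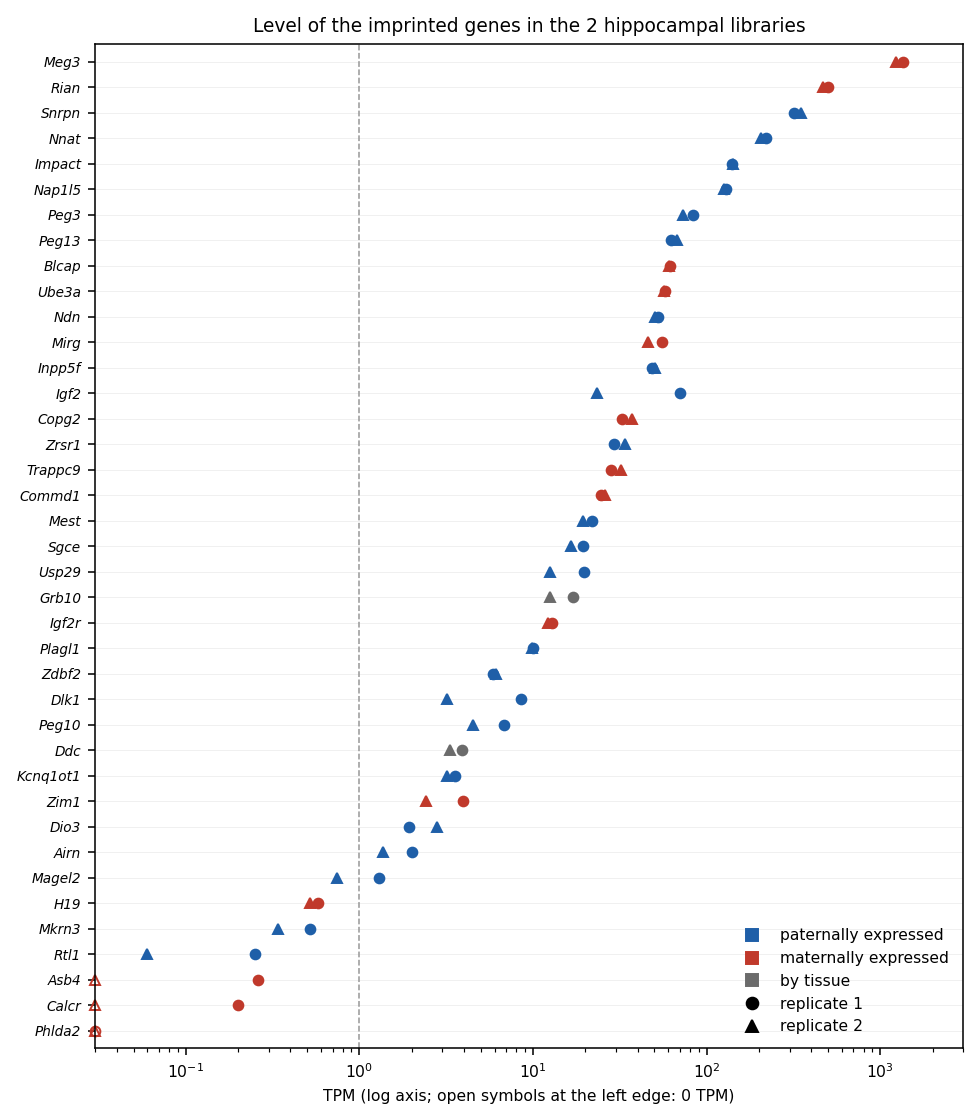
TPM of each imprinted gene in replicate 1 (circles) and replicate 2 (triangles) on a log axis, coloured by parental class, with a dashed line at 1 TPM and open symbols at the left edge for 0. Meg3 stands highest at 1342 and 1232 TPM, 32 genes lie right of the line in both libraries, and Igf2, Dlk1 and the lowest genes show the widest gaps between the libraries.

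The Dlk1-Dio3 cluster (chromosome 12, 109452823 to 110281097 in mm10) gave the highest levels and the widest range. Meg3, a nuclear noncoding RNA of the maternal copy, stood at 1342 TPM (replicate 1) and 1232 TPM (replicate 2), above 99.9% of detected protein-coding genes in either library. Rian, which hosts small nucleolar RNAs, stood at 502 and 467 TPM, and Mirg, which hosts microRNAs, at 55.5 and 46.1 TPM. The order Meg3, Rian, Mirg was the same in both libraries, with Meg3 at 2.66 ± 0.0239 times Rian and 25.5 ± 1.77 times Mirg (SD, n = 2). The paternally expressed genes of the cluster were far lower. Dlk1, a transmembrane relative of Notch ligands, stood at 8.53 and 3.20 TPM. Dio3, the enzyme that inactivates thyroid hormone, stood at 1.94 and 2.81 TPM. Rtl1, a coding gene derived from a retrotransposon, was near the limit of the data with 28 and 7 counts, or 0.25 and 0.06 TPM.

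Meg3, Rian and Mirg are thought to be processed from long transcripts, and annotated microRNA and small nucleolar RNA genes lie within them. Of 67 microRNA entries in the span of the cluster, 5 had any counts, 27 in replicate 1 and 20 in replicate 2. Mir433 had 14 and 12 counts, Mir1188 8 and 4, and Gm27379 1 and 3. None of 23 small nucleolar RNA entries had a count, which allows up to 3 counts each. These RNAs are short, and whether the library protocol retained them was not tested.

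The Snrpn cluster (chromosome 7, 59228750 to 62420139) was led by Snrpn itself. Snrpn, which encodes the neuronal spliceosome protein SmN, stood at 317 TPM (replicate 1) and 349 TPM (replicate 2). Ndn, a MAGE family protein of postmitotic neurons, stood at 52.3 and 50.1 TPM. The other paternally expressed genes were low. Magel2, a MAGE protein of endosomal sorting known for its hypothalamic expression, stood at 1.29 and 0.74 TPM, and Mkrn3, a ubiquitin ligase that restrains puberty, at 0.52 and 0.34 TPM. Ube3a, the ubiquitin ligase lost in Angelman syndrome and expressed from the maternal copy in neurons, stood at 57.5 and 57.0 TPM. Ube3a stood at 1.12 ± 0.0280 times Ndn, while Snrpn stood at 5.81 ± 0.420 times Ube3a (SD, n = 2).

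Transcripts next to Snrpn stood at still higher TPM. Snurf, which shares a transcript unit with Snrpn, stood at 923 ± 72.6 TPM, and Snhg14, the noncoding RNA that runs through the region and lies antisense to Ube3a, at 680 ± 37.9 TPM (SD, n = 2). In counts Snurf was far lower, with 1834 and 2190 beside 10589 and 12420 for Snrpn, while Snhg14 had 13221 and 13175. Snurf is short and overlaps Snrpn on the same strand, so the split of reads between them is uncertain. None of the 210 small nucleolar RNA entries and 20 microRNA entries of this span had a count. The library kit keeps strand, per the labels, but whether strand was used in counting is not given in the sources used here, so reads of Ube3a and Snhg14 may be mixed. The same limit holds for Kcnq1ot1 and Kcnq1, Airn and Igf2r, Mest and Copg2, Nnat and Blcap, Nap1l5 and Herc3, and Zrsr1 and Commd1, which overlap on opposite strands.

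In the Peg3 cluster (chromosome 7, 6671269 to 6967219) the paternally expressed genes led. Peg3, a zinc finger protein known for maternal care and body weight in mice, stood at 83.4 and 73.4 TPM. Usp29, a member of the ubiquitin protease family that shares the promoter region of Peg3, stood at 19.6 and 12.5 TPM. Peg3, whose promoter window overlaps that of Usp29, stood at 5.06 ± 1.14 times Usp29 (SD, n = 2). Zim1, a maternally expressed zinc finger gene, stood at 3.94 and 2.42 TPM.

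Several paternally expressed genes that sit inside introns of other genes were high. Nnat, a small membrane protein of neurons that lies in an intron of Blcap on chromosome 2, stood at 219 and 204 TPM, 3.45 ± 0.122 times its host Blcap (61.8 and 60.8 TPM; SD, n = 2). Nap1l5, a nucleosome assembly protein that lies in an intron of Herc3 on chromosome 6, stood at 130 and 125 TPM beside 87.0 and 99.0 TPM for Herc3. Peg13, a noncoding RNA in an intron of Trappc9 on chromosome 15, stood at 62.0 and 67.7 TPM, 2.15 ± 0.0754 times Trappc9, a vesicle trafficking protein. Zrsr1, a splicing factor copied by retrotransposition into an intron of Commd1 on chromosome 11, stood at 29.2 and 33.9 TPM beside 24.5 and 25.8 TPM for Commd1, a copper-handling protein. In each of these 4 gene pairs the inner gene stood above its host in both libraries. Peg13 and Trappc9 lie on the same strand, so strand cannot separate their reads, which may also be mixed.

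Among the remaining paternally expressed genes, Impact, a regulator of the translation kinase GCN2, stood at 140 and 142 TPM. Inpp5f, a phosphoinositide phosphatase, stood at 48.7 and 50.5 TPM. Mest, a hydrolase-like protein known from mesodermal tissue, stood at 21.9 and 19.3 TPM. Sgce, the epsilon sarcoglycan mutated in myoclonus dystonia, stood at 19.3 and 16.6 TPM, 3.27 ± 0.578 times the adjoining retrotransposon-derived gene Peg10 (SD, n = 2). Plagl1, a zinc finger transcription factor, stood at 10.0 and 9.88 TPM, and Zdbf2 at 5.88 and 6.12 TPM.

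Growth genes of the distal chromosome 7 clusters were uneven. Igf2, a fetal growth factor known to be made by choroid plexus and meninges in the adult brain, stood at 70.4 TPM (replicate 1) and 23.4 TPM (replicate 2). H19, the noncoding RNA that competes with it for enhancers, had 10 and 8 counts, or 0.58 and 0.52 TPM. Kcnq1ot1, the noncoding RNA that silences its cluster on the paternal copy, held 5967 and 5774 counts over a span from 143203458 to 143296549, which gave 3.54 and 3.20 TPM. The gene it lies antisense to, the potassium channel Kcnq1, had 10 and 5 counts. Phlda2, known as a restrainer of placental growth, had 0 counts in both libraries, and 0 counts allow up to 0.115 CPM in replicate 1 and 0.105 CPM in replicate 2. Igf2r, the receptor that clears IGF2 and is maternally expressed in most tissues, stood at 12.9 and 12.2 TPM. Airn, the antisense RNA that silences Igf2r elsewhere, had 31 and 25 counts, or 2.02 and 1.36 TPM.

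Grb10, an adaptor that damps insulin signalling, is paternally expressed in neurons and maternally in most other tissues. It stood at 17.1 TPM (replicate 1) and 12.5 TPM (replicate 2). Ddc, the enzyme that makes dopamine and serotonin and neighbours Grb10, stood at 3.92 and 3.31 TPM. On chromosome 6, Calcr, the calcitonin receptor, had 13 counts in replicate 1 and 0 in replicate 2, and Asb4, a ubiquitin ligase adaptor of the hypothalamus, had 15 and 0.

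The order of the maternal and the paternal medians depended on the summary. The maternal median was 26.3 TPM (replicate 1) and 29.0 TPM (replicate 2), and the paternal median 19.6 and 16.6 TPM. On the log2 scale the maternal median stood above the paternal one by 0.42 and 0.81, a mean of 0.62 ± 0.27 (SD, n = 2). Over protein-coding genes alone the difference was -0.03, and as a mean of log2(TPM + 0.1) over genes it was -0.43, so the direction rested on the noncoding RNAs and on how genes near 0 were weighted. Above 100 TPM in both libraries were 4 paternally expressed genes (Snrpn, Nnat, Impact and Nap1l5) and 2 maternally expressed ones (Meg3 and Rian). The 7 noncoding genes had a median of 50.8 ± 6.60 TPM and the 32 coding ones 17.0 ± 3.50 TPM (SD, n = 2).

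Within clusters the balance of the listed genes ran in both directions. Each sum covered only genes among the 39. The paternal sum of the Snrpn cluster, 371 TPM (replicate 1) and 400 TPM (replicate 2), left out Snurf and Snhg14. These stood at 872 and 974 TPM (Snurf) and at 707 and 653 TPM (Snhg14). Of 11 clusters that hold both classes, 8 had at least 10 counts of each class in each library, and in all 8 both libraries had the same sign with a mean above the SD. The paternal sum was higher in 5. In the Peg3 cluster the log2 ratio of summed maternal over summed paternal TPM was -4.71 in replicate 1 and -5.15 in replicate 2, in the Snrpn cluster -2.69 and -2.81, and at Nnat and Blcap -1.82 and -1.75. At Peg13 and Trappc9 it was -1.14 and -1.07, and at Zrsr1 and Commd1 -0.26 and -0.39, a mean of -0.32 that was -1.07 in the alignment-free table. The maternal sum was higher in 3 clusters. The ratio was 0.57 and 0.95 for Copg2, a coat protein of Golgi vesicles at 32.5 and 37.3 TPM, over Mest, and 2.67 and 3.17 for Igf2r over Airn. The last ratio averaged 2.92, and 1.83 in the alignment-free table.

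The Dlk1-Dio3 cluster stood furthest to the maternal side, with log2 ratios of 7.47 and 8.17, on average 7.82 ± 0.49 (SD, n = 2) or 226-fold. There the maternal genes are noncoding and the paternal ones coding, and with coding members alone the cluster could not be evaluated. The other 3 clusters had too few counts of listed maternal genes. H19 had at most 10 counts, Phlda2 0, and Asb4 and Calcr together 28 in replicate 1 and 0 in replicate 2. Imprinted genes outside the list, such as Ppp1r9a (8952 and 9402 counts) and Cdkn1c (133 and 100 counts), were not part of any sum.

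**Figure D2:**
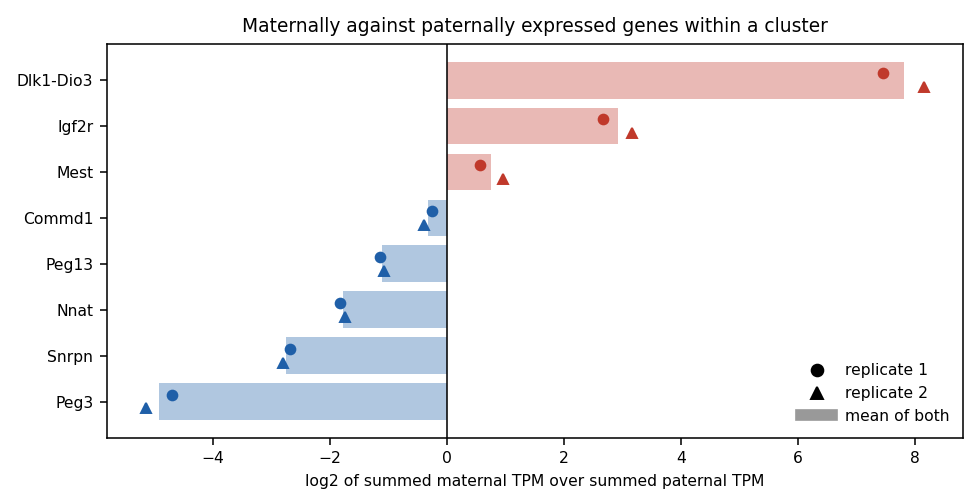
The log2 ratio of summed maternal over summed paternal TPM of the listed genes in the 8 clusters with enough counts. Shown are replicate 1 (circles), replicate 2 (triangles) and their mean (bars). The ratios run from -4.93 in the Peg3 cluster to 7.82 in the Dlk1-Dio3 cluster, and the libraries lie on the same side of 0 in each.

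The libraries differed from each other in some of these genes far more than in others. An exact binomial test conditional on the summed count of a gene, two-sided, sets the difference between the 2 libraries against counting error alone, and its p-values were adjusted by Benjamini-Hochberg over the 16971 genes whose mean expected count reached 20. It covers 33 of the 39 genes. Of these, 2 were more than 2-fold apart (6.06%), against 2.00% of all genes tested, and both were lower in replicate 2, the direction of 1.54% of all genes. Igf2 had 2758 counts in replicate 1 and 1074 in replicate 2, which was 2.81-fold after TMM scaling, with an exact 95% counting interval of 2.61 to 3.02 (exact test, adjusted p = 2.24e-199). Dlk1 had 449 and 172 counts, which was 2.85-fold, with an interval of 2.39 to 3.42 (adjusted p = 4.92e-33 in the same exact test).

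Smaller differences mostly had the same direction. With TMM scaling 18 of the 33 genes were lower in replicate 2 at an adjusted p under 0.05 (9.13% of all genes tested) and 3 were higher (9.29% of all genes), namely Snrpn, Peg13 and Trappc9. The call of Trappc9 was lost in the alignment-free counts (adjusted p = 0.086), and that of Nap1l5, at 1.06-fold, was lost with DESeq2 size factors (adjusted p = 0.054) and in the alignment-free counts (adjusted p = 0.055). The imprinted genes tested had a median of 1718 counts, against 422 for all genes tested, and higher counts let smaller differences pass. Their median absolute log2 ratio was 0.13, against 0.12 for all genes. The median log2 ratio of replicate 2 over replicate 1 was -0.12 over the imprinted genes and -0.00 over all genes with TMM scaling. With scaling to the ERCC spike-ins the median of all genes was 0.27 and that of the imprinted genes 0.15. A change of scaling shifts every gene by nearly the same amount. The gap of 0.12 between the medians could therefore not change, and its recurrence is no second test. The number of the 33 genes with a negative ratio was 24 with TMM scaling and 9 with spike-in scaling, and the signs of Meg3, Rian, Peg3 and Nnat were among those that turned. With spike-in scaling 7 genes were lower and 19 higher in replicate 2 at an adjusted p under 0.05, and 59.1% of all genes passed.

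Named examples show the range of these differences. Magel2 had 106 and 65 counts (1.78-fold higher in replicate 1, interval 1.30 to 2.47), Zim1 218 and 137 counts (1.74-fold, 1.40 to 2.17), Peg10 794 and 565 counts (1.54-fold, 1.38 to 1.71) and Usp29 1577 and 1157 counts (1.49-fold, 1.38 to 1.61). Grb10 was 1.34-fold and Mest 1.25-fold higher in replicate 1. Meg3 differed by 1.09-fold and Rian by 1.10-fold, beside a common coefficient of variation of 0.0886 that edgeR gave for the pair of libraries. Ube3a, Inpp5f, Impact and Zrsr1 had ratios between 0.971 and 1.01 for replicate 1 over replicate 2, and their intervals include 1.

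Among the 6 genes too low for the test, Rtl1 was 4.37-fold higher in replicate 1 with an interval of 1.87 to 11.9. Asb4 and Calcr, at 0 expected counts in replicate 2, were higher in replicate 1 with exact intervals that begin at 3.92-fold and 3.33-fold. In the alignment-free table Asb4 had 15 counts in replicate 1 and 1 in replicate 2. H19 had a ratio of 1.37 with an interval of 0.485 to 3.98 and Mkrn3 1.57 with 0.795 to 3.18, so no difference was detectable at this depth.

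Markers of other brain regions and of border tissue were also higher in replicate 1. The 8 hypothalamic markers summed to 45.6 TPM (replicate 1) and 1.80 TPM (replicate 2). Oxt, Sim1 and Hcrt had 0 counts in replicate 2. All 8 had a higher TPM in replicate 1, but only 3 had enough counts for the exact test. Those 3 were lower in replicate 2 at an adjusted p under 0.05. Agrp had only 2 and 1 counts and Pomc 20 and 15, so their differences are small beside counting error. Avp, or vasopressin, stood at 29.7 and 0.54 TPM and Pmch, or melanin-concentrating hormone, at 9.09 and 0.16 TPM. The 10 choroid plexus markers summed to 1211 and 188 TPM and the 8 striatal ones to 211 and 78.8 TPM, with every member higher in replicate 1. Of 8 meningeal fibroblast markers 7 were higher in replicate 1, with sums of 98.3 and 70.0 TPM. The 6 hippocampal markers, led by the kinase Camk2a at 1199 and 1342 TPM, summed to 1448 and 1622 TPM and none was higher in replicate 1. The 4 neuron markers summed to 1948 and 2190 TPM, and the lists of 4 for other cells to 1500 and 1487 (astrocyte), 1329 and 1309 (oligodendrocyte), 219 and 209 (microglia) and 67.9 and 58.4 TPM (endothelium). The part of these cells in the differences of Igf2, Dlk1, Magel2, Asb4, Calcr and the other genes was not tested. In RNA from whole tissue, fewer cells of a type and less RNA per cell cannot be told apart.

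**Figure D3:**
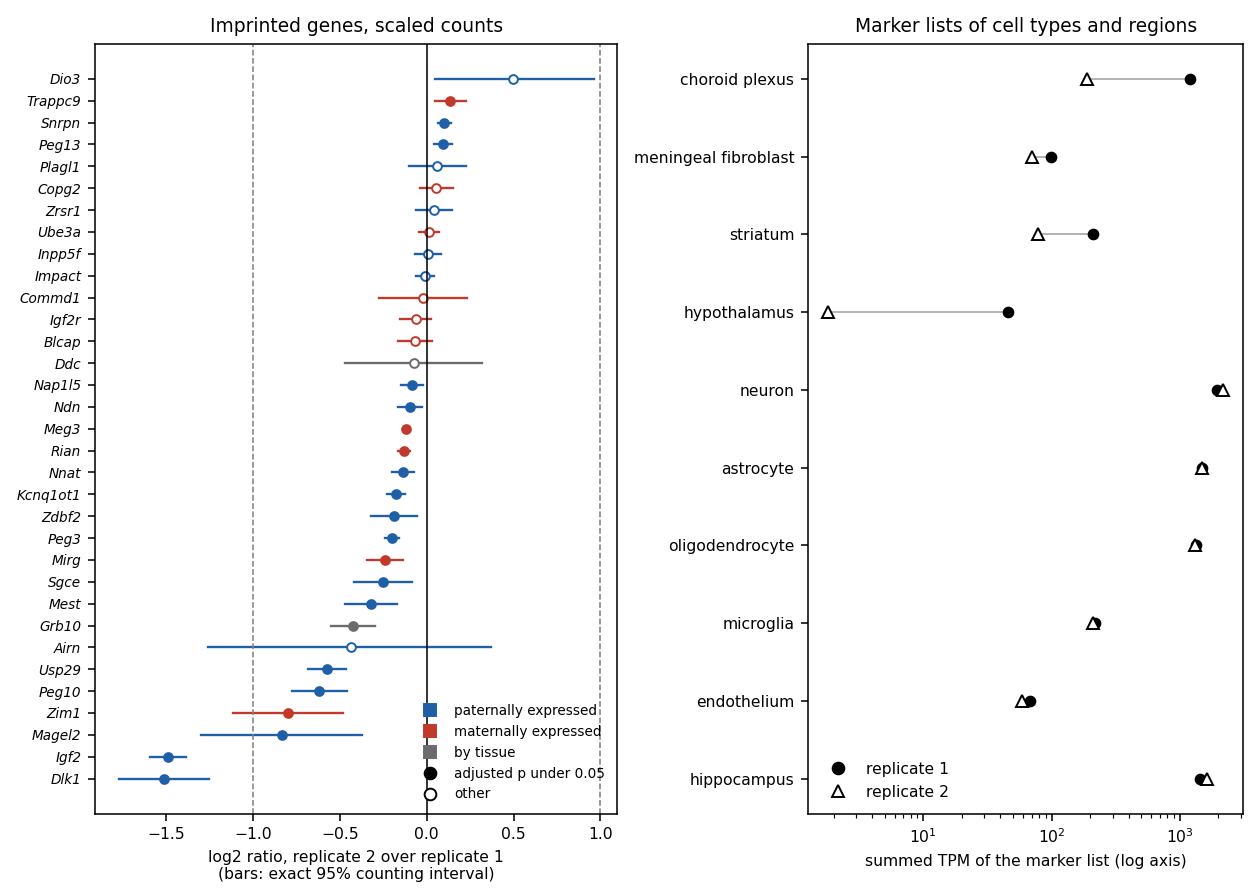
Left, the log2 ratio of replicate 2 over replicate 1 for the 33 tested imprinted genes after TMM scaling, with exact 95% counting intervals, filled where the adjusted p was under 0.05, and dashed lines at 2-fold. Right, summed TPM of marker lists on a log axis. Dlk1 and Igf2 lie beyond the 2-fold line, and the hypothalamus list shows the widest gap, from 45.6 to 1.80 TPM.

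Starts of transcripts were compared because several imprinted genes have promoters of different parental origin. The deposited transcript tables come from an alignment-based and an alignment-free quantification, and a share below is a transcript's percent of its gene's TPM. For Inpp5f, transcripts that start inside the gene, between 128687546 and 128688489 on chromosome 7, held 53.3% in replicate 1 and 61.7% in replicate 2. An internal brain transcript is the paternally expressed form of this gene, while the full-length form is not imprinted. Full-length starts held 28.0 and 27.2%, so the internal starts led in both libraries. In the alignment-free table the shares were 41.1 ± 6.41% and 28.6 ± 1.61% (SD, n = 2).

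Grb10 transcripts were split between its upstream promoter, which is maternal in peripheral tissues, and the downstream promoter, which is paternal in neurons. The upstream group held 54.4% in replicate 1 and 63.6% in replicate 2, and the downstream group 38.8 and 31.5%. In TPM the downstream group stood at 6.62 and 3.93 and the upstream group at 9.28 and 7.94, so both groups were higher in replicate 1. The alignment-free shares were 43.7 and 62.1% upstream and 27.6 and 19.6% downstream.

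For Mest, the start within the window printed above, at 30738050 to 30738055 on chromosome 6, held 97.2 ± 1.80% (SD, n = 2) when aligned and 63.2 ± 2.28% when not. Starts further upstream held 0% in the former and 32.5 ± 4.00% in the latter. A pair of coding transcripts that start at 142657496 and 142657466 on chromosome 7 held 50.4 and 53.6% of the TPM of Igf2. The coding transcript Igf2-209, which starts further downstream at 142656018, held 0% when aligned but 17.1 ± 11.2% without alignment (SD, n = 2). Upstream starts of Igf2 held 23.9% in replicate 1 and 10.5% in replicate 2, but 8.10 and 1.08% without alignment. For Ddc the tables differed outright, with 94.9 ± 7.21% at the downstream start when aligned and 61.7 ± 4.43% at the upstream start without alignment.

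**Figure D4:**
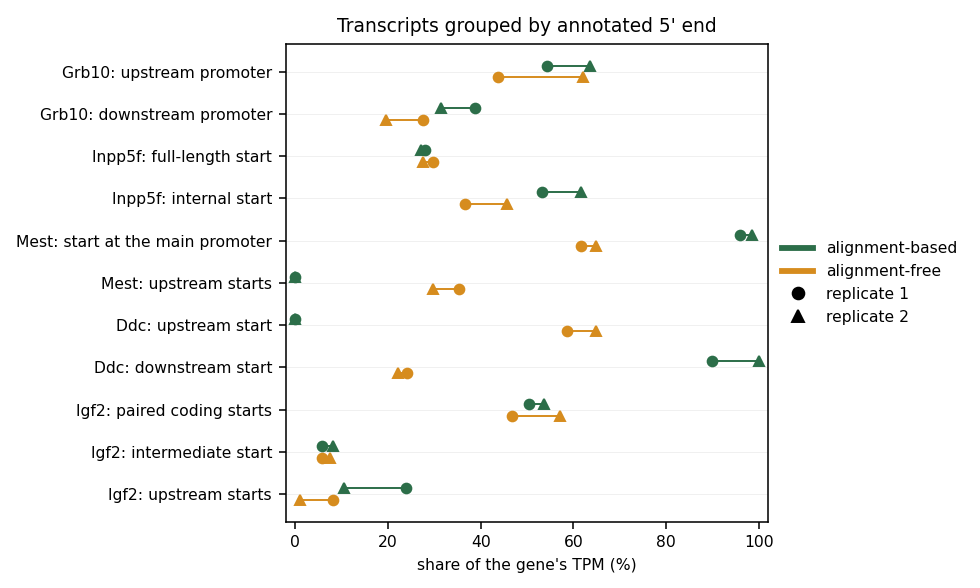
Percent of the TPM of a gene that came from transcripts grouped by annotated 5′ end, for replicate 1 (circles) and replicate 2 (triangles) in the alignment-based (green) and alignment-free (orange) tables. Inpp5f and Grb10 keep the order of their groups in both tables, while the upstream starts of Mest and Ddc hold 0% in one table and 32.5 and 61.7% in the other.

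The same disagreement reached some of the highest genes. Of 29 imprinted genes that passed TPM of 1 and have several transcripts, 20 kept their leading transcript from table to table and 25 had the same one in both libraries. Snrpn-201, whose start lies at 60005111 on chromosome 7, held 94.9 ± 0.0283% of Snrpn when aligned and 0.324 ± 0.189% without alignment (SD, n = 2). Snrpn-202, which starts upstream at 60140219, held the other 5.09 ± 0.0283% and 99.7 ± 0.189%. Peg10-203 held 86.6 ± 4.67% against 0.00164 ± 0.00232%, and another transcript of the gene held 13.4 ± 4.67% when aligned and nearly all of it without alignment. Blcap-202 held 71.0 ± 2.71% against 20.4% in replicate 1 and 7.62% in replicate 2 without alignment. The gene sums of Snrpn, Peg10 and Blcap were little affected. Their alignment-free counts were 1.13, 1.17 and 1.10 times the alignment-based ones. The median over protein-coding genes with at least 500 counts was 1.14.

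Leaders that held in both tables included Nap1l5-201 (98.5 ± 0.0354% and 98.2 ± 0.544%), Igf2r-201 (94.8 ± 2.11% and 93.7 ± 3.81%) and Peg3-201 (75.8 ± 0.806% and 73.7 ± 0.630%; SD, n = 2). Meg3 was spread over 11 transcripts. Its longest, Meg3-209 of 14548 bases, held 71974 and 72342 of the 89301 and 89940 counts of the gene but 20.7 ± 0.375% of its TPM, while the short Meg3-203 of 457 bases held 24.1 ± 0.983%.

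The quantifications gave different counts for Zrsr1. Its alignment-free count was 1.45 times the alignment-based one in replicate 1 and 3.68 times in replicate 2, above 99.2 and 99.96% of protein-coding genes with at least 500 counts. The log2 ratio of replicate 2 over replicate 1 of Zrsr1 was 1.38 in alignment-free counts and 0.04 in alignment-based counts. Zrsr1 lies opposite in strand to Commd1 and derives from a gene copy, so its level is uncertain. The coding transcript Zrsr1-201 alone stood below Commd1 in TPM in both libraries when aligned, and above it in both without alignment. Over protein-coding genes with at least 500 counts, the 5th to 95th percentile ran from 1.06 to 1.24 in both libraries. Of the 6 noncoding members at 1 TPM or more, 3 also stood above this range, and Meg3, Rian and Peg13 lay within it. Airn, with 31 and 25 counts, was far below that minimum, so the range does not describe genes at its depth. The ratio was 2.00 ± 0.0186 for Airn, 1.45 ± 0.0145 for Kcnq1ot1 and 1.33 ± 0.00105 for Mirg (SD, n = 2).

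**Figure D5:**
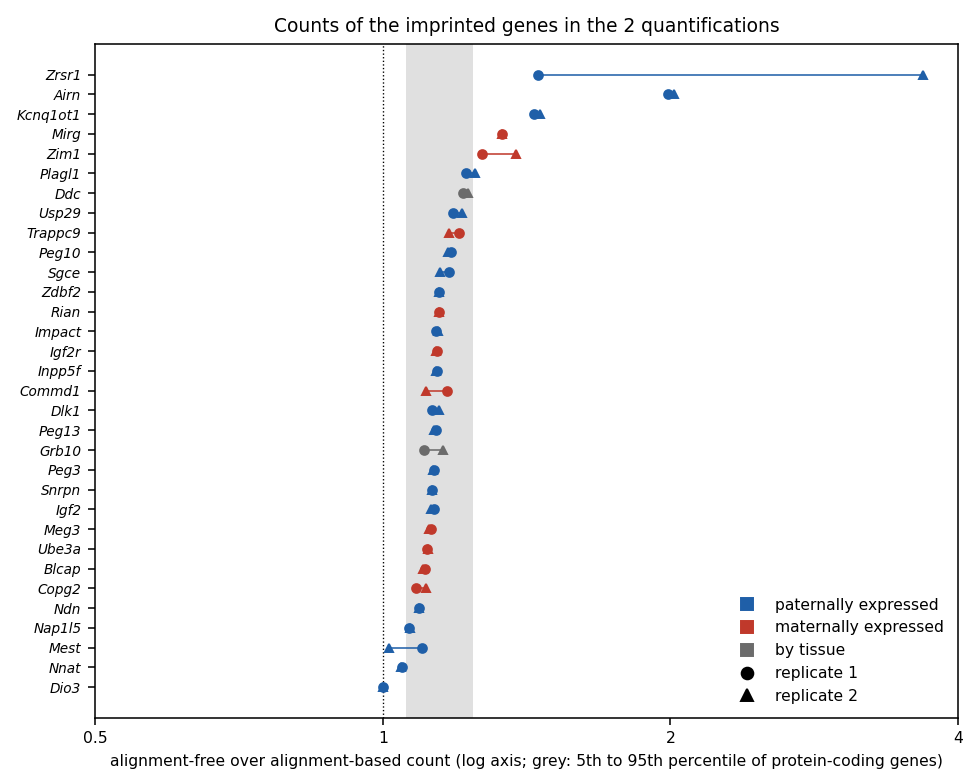
Alignment-free over alignment-based count of the 32 imprinted genes that reached 1 TPM in each library, on a log axis. Circles are replicate 1 and triangles replicate 2. Grey marks the 5th to 95th percentile of protein-coding genes with at least 500 counts. Zrsr1 lies at 1.45 and 3.68, Airn at 2.00, and most others within the grey band.

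Other imprinted genes outside the list were also read. Of 40 further genes 24 reached TPM of 1 in both libraries. That share was near the 60.4% of protein-coding genes and above the 28.3% of all annotated genes. The 40 genes were led by Snurf, Gnas, the stimulatory G protein subunit (794 and 830 TPM), and Snhg14. Of the 25 that could be tested, 7 were lower and 2 higher in replicate 2 by the exact test at an adjusted p under 0.05 (9.13 and 9.29% of all genes tested), and the median log2 ratio was -0.06. The 2 that were higher were Snurf and Rasgrf1, an exchange factor for Ras at 191 and 221 TPM. Genes that maintain imprints were also expressed. Of 11, 10 reached TPM of 1 in both libraries, led by the corepressor Trim28 (95.7 and 109 TPM), the zinc finger protein Zfp445 (73.5 and 83.7 TPM) and the DNA methyltransferase Dnmt3a (45.2 and 40.9 TPM). Zfp57, whose binding letters are shown above, stood at 4.63 and 4.59 TPM. None of the 11 passed an adjusted p of 0.05 in the exact test in either direction, 3 had an unadjusted p under 0.05, and their median log2 ratio was -0.01.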

How the data were processed

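Each of the 2 libraries was made from 300 ng of total RNA with ERCC spike-ins and a directional kit, per the labels, and its reads were quantified against mm10 and GENCODE M21, per the deposited notes. No aligner or quantifier is given in the sources used here. mm10 is not a CAST genome, and any effect on CAST reads was not tested. The authors deposited expected counts, TPM, FPKM, posterior mean TPM and a score of TPM variation per gene, per the file headers. They deposited expected counts, TPM and the percent of a gene's TPM per transcript from alignments, and estimated counts and TPM per transcript without alignment, which were summed per gene here. Totals were 26128897 and 28689423 expected counts.

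The 39 genes, their parental classes and all lists were chosen with earlier results of these data known. Every listed gene was named, and of the other imprinted and the imprint maintenance genes the 3 highest at TPM of 1 in both libraries. Markers have no naming rule, and Avp, Pmch, Camk2a, Rasgrf1, Zfp57 and genes at 0 were named after their values were seen. With 1 group, edgeR (4.0.16) gave only TMM scaling and a common coefficient of variation from rounded expected counts (R 4.3.3). The log2 ratio of the libraries used a prior count of 0.5, and all intervals and floors hold for counting error alone. Python 3.11.15 with numpy 2.4.6, pandas 2.3.3, scipy 1.17.1 and matplotlib 3.10.9 did the rest. The ratio test was checked on counts simulated with counting error alone, so the check does not cover spread beyond it. Alternatives covered DESeq2 (1.42.0) size factors, library size, spike-ins, count and TPM minimums, priors, FPKM, posterior mean TPM, the alignment-free tables, other summaries and leaving out each replicate.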

Additional observations from a re-analysis of the deposited data

How the results depend on the processing

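The count of 32 genes at TPM of 1 in both libraries kept within 30 to 34 under the other thresholds and quantifications and was 32 and 33 in single libraries. The class medians moved with the members and unit used. The paternal median was 12.4 as FPKM and 23.5 TPM over detected genes only. The maternal median was 24.2 TPM in the alignment-free table, 18.9 as FPKM, 18.9 TPM over protein-coding genes and 42.9 TPM over detected genes only. The log2 ratio of the medians reversed over protein-coding genes (-0.034) and as a mean of log2(TPM + 0.1) (-0.43) and was 0.0034 as a mean of log2(TPM + 1). It was 0.59 to 0.88 under the other settings and 0.42 and 0.81 in single libraries. Clusters with a higher maternal sum fell from 3 to 1 with coding members only, since Dlk1-Dio3 and Igf2r then lack 1 class, and without a minimum of counts Igf2-H19 joined the paternal side at -6.21 ± 1.01. Of 61 cluster ratios under alternatives, 9 moved by more than the SD and none changed sign. Many of the 61 could not do either, so these counts are no measure of stability. Leaving out a replicate cannot exceed the SD of 2 libraries or turn a shared sign. Dropping the count minimum, keeping coding members of all-coding clusters, and taking the highest member where each class has 1 gene all repeat the main value. The alignment-free table gave -1.07 for Commd1 over Zrsr1, 1.83 for Igf2r over Airn, -1.70 for Blcap over Nnat, -0.99 for Trappc9 over Peg13, -4.48 for the Peg3 and -2.41 for the Snrpn cluster. With 1 TPM added to each sum Igf2r over Airn was 2.34 and the Peg3 cluster -4.53, and with the highest member of each class the Snrpn cluster was -2.54; the cause was not tested.

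The 2 genes over 2-fold apart, Igf2 and Dlk1, were joined by Rtl1 and Zrsr1 (4 genes) in alignment-free counts and by Rtl1, Asb4 and Calcr (5 genes) with no minimum of counts, a setting chosen after seeing the data. Spike-in scaling turned the median log2 ratio of the imprinted genes to 0.15 and the ratios of Zdbf2 (0.077), Blcap (0.20), Nnat (0.13), Sgce (0.015), Nap1l5 (0.18), Peg3 (0.067), Ndn (0.17), Kcnq1ot1 (0.091), Meg3 (0.15), Rian (0.14), Mirg (0.026), Igf2r (0.20) and Impact (0.25), with all genes shifted by 0.27. Of 87 shares of leading transcripts under alternatives, 24 were counted as moved. Leaving out a replicate cannot move a share by more than the SD of 2 libraries. The leave-outs of Dio3, at 100% in both libraries, were counted as moved only because its SD was 0. All other moves came from the alignment-free shares of the 29 genes, the only setting that could show them. The cause was not tested. No paired analysis was possible because there is 1 group. Leaving out a replicate gives no ratio between libraries. Depth limits H19, Mkrn3, Rtl1, Asb4, Calcr and Phlda2, which had at most 28 counts.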
